A study of Homo sapiens with 6 samples.

Results

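The acute phase proteins and the IL6 signalling genes of the human liver line HepaRG were compared between cells labelled as a functional knockout of the pregnane X receptor (PXR) and wild-type cells. The members were the rows of the deposited table whose gene symbol was CRP, SAA1, SAA2, SAA4, ORM1, ORM2, LBP, IL6R, IL6ST or SOCS3. All 10 were present among 16659 genes, and all 10 passed the filter on low values, CRP and SAA4 only through the knockout libraries. RNA was sequenced from 3 knockout libraries and from 3 wild-type libraries, which the series names as its control. The cells of both groups are HepaRG, a line that the labels describe as hepatic stem cells of liver cancer origin, and they received no drug. The labels do not say how the knockout was made, whether it is a single clone, or whether libraries came from separate cultures. The p-values therefore measure the spread between these libraries, which may be technical.

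The acute phase response is the change in the plasma proteins that hepatocytes secrete during infection or injury. IL6 binds its receptor IL6R, the pair engages the shared subunit gp130 (encoded by IL6ST), and Janus kinases then activate the transcription factor STAT3, which raises acute phase genes together with C/EBP factors. SOCS3 is induced by the same route and binds gp130 to shut it off. CRP, SAA1, SAA2, ORM1, ORM2 and LBP are classical acute phase genes, while SAA4 is known as a constitutive serum amyloid A of liver.

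Several members are so alike that a read may not tell them apart, so the sequences that separate them are shown first. Over the 369 coding bases of SAA1 and SAA2 in GENCODE 29 there were 11 differences, an identity of 97.0%. The stretch with the most differences, coding bases 174 to 323, held 10 of them, which are in capitals. It lies, with intron sequence spliced out, at chr11:18269277-18269809 on the plus strand for SAA1 and at chr11:18245423-18245966 on the minus strand for SAA2 (GRCh38).
SAA1: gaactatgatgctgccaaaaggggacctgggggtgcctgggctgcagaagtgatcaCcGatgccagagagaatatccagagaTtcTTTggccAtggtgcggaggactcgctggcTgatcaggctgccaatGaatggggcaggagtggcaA
SAA2: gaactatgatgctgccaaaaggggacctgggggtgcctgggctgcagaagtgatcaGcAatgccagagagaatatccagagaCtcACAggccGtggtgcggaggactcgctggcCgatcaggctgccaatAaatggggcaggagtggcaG

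ORM1 and ORM2, the genes of the plasma carrier orosomucoid, differed at 31 of 606 coding bases, an identity of 94.9%. Coding bases 254 to 403 held 25 of the differences. They span chr9:114323802-114324864 in ORM1 and chr9:114330573-114331641 in ORM2, both on the plus strand, with introns spliced out.
ORM1: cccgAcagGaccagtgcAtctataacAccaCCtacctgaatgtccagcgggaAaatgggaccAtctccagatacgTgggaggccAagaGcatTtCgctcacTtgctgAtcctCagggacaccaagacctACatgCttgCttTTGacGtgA
ORM2: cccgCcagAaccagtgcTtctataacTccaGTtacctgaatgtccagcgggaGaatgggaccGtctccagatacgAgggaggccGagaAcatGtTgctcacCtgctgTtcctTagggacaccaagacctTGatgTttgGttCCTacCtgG

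At the stated read length of 100 bases, 28.5% of all windows of the SAA1 transcripts occurred unchanged in SAA2, and 11.2% of those of SAA2 occurred in SAA1. For the orosomucoid genes the share was 29.6% of ORM1 windows and 35.9% of ORM2 windows. SAA4 shared no such window with SAA1, but 60.5% of its windows were in the annotated read-through gene SAA2-SAA4. Within the SAA1 and SAA2 pair and within the orosomucoid pair, most windows thus belong to only 1 gene of the pair. The 246 shared windows were set against 2190 windows of all SAA2 transcripts and 862 of SAA1. SAA2 was not compared with the read-through gene, which overlaps it. Most windows of SAA4 also fit the read-through gene, and the level of each of these members keeps some uncertainty.

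Levels are in scaled CPM, the authors' read abundance relative to a scaled library size, and errors are SD over n = 3 libraries. The estimated depth was 28154914 to 33393110 reads in knockout libraries and 11359209 to 20945994 reads in wild-type libraries. Log2 fold changes are knockout minus wild type of log2(scaled CPM + 0.5), with their standard error (SE). The added 0.5 understates the change of low genes. Calls are from limma with Benjamini-Hochberg adjustment over all 16219 genes tested. By that rule 79.9% of all genes were called, 40.3% as higher and 39.6% as lower in the knockout, so a call alone says little about a gene. The targeted gene NR1I2, which encodes PXR, stood at 13.6 ± 0.62 CPM in knockout and 7.63 ± 0.60 CPM in wild-type libraries, and a whole-gene value does not check a functional knockout.

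All 7 genes for secreted acute phase proteins rose in the knockout by more than 2-fold, whereas the receptor chains hardly moved. In the knockout, 9 of the 10 members were called as higher and 1, IL6R, as lower. The filter asked for more than 1 CPM in at least 3 libraries, and CRP and SAA4 were under 1 CPM in every wild-type library. For CRP and SAA4 the direction and the lack of overlap in the counts here were thus fixed by the filter. A rise of at least 2-fold was called for 7 members, against 12.6% of all genes tested. The groups did not overlap at any of the 10 members, which was also so for 80.8% of all genes; 9 members lay higher in the knockout with no overlap, against 40.8% of all genes. The median log2 fold change was 2.29 over the members and 0.01 over all genes tested. Together the 7 plasma protein genes took 0.552% ± 0.0045 of all scaled CPM in knockout and 0.155% ± 0.0012 in wild-type libraries.

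**Figure D1:**
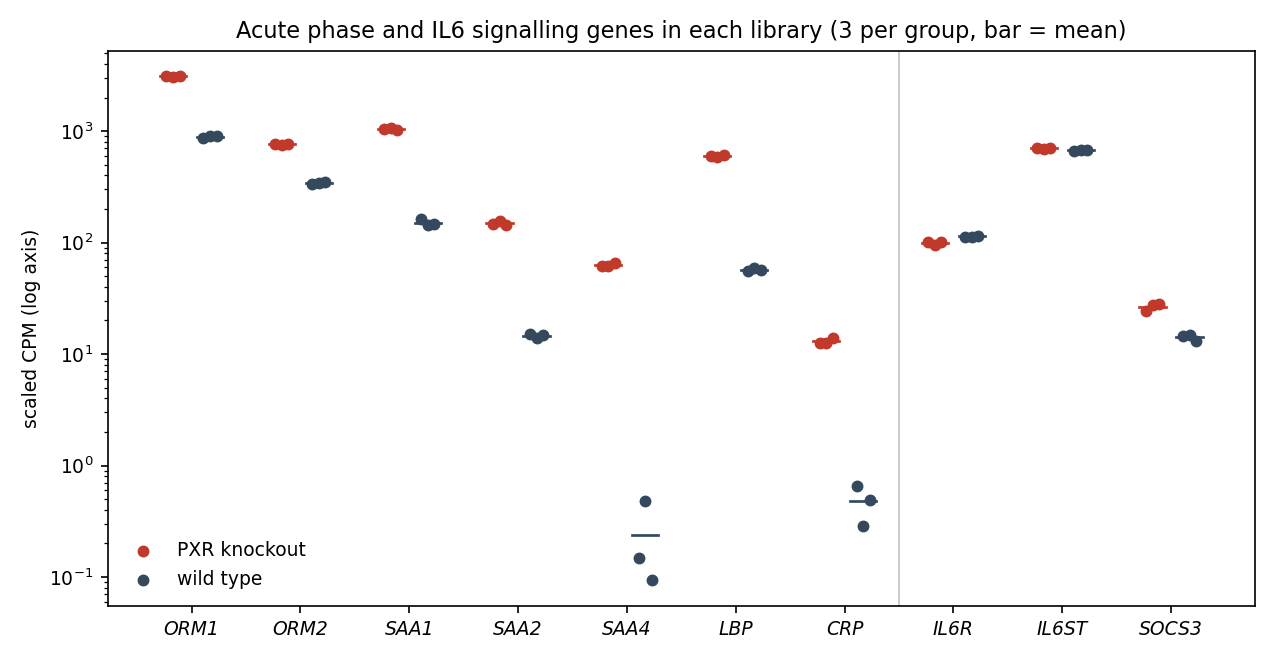
Scaled CPM on a log axis for each of the 10 genes, with 1 point per library, PXR knockout left of wild type and a bar at each group's mean (3 libraries each); the vertical line separates plasma proteins from receptors and SOCS3. The 7 plasma proteins sit clearly higher in the knockout, IL6R and IL6ST stay nearly level, and the wild-type points of SAA4 and CRP lie under 1 CPM.

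ORM1 (chromosome 9, 114323056 to 114326475), which encodes the more abundant orosomucoid, was the member with the highest level in both groups. Its scaled CPM was 3114, 3077 and 3121 in knockout libraries 1 to 3, against 873, 909 and 901 in wild-type libraries 1 to 3. The ratio of the group means was 3.47, with a log2 fold change of 1.80 ± 0.027 (limma adjusted p = 4.9e-16). ORM2 (114329869 to 114333252), its downstream copy, had 759, 758 and 766 CPM in knockout libraries and 334, 344 and 351 CPM in wild-type libraries. It rose by 1.15 ± 0.026 on the log2 scale (limma adjusted p = 3.4e-14), the smallest rise among the plasma proteins. Over the 644 tested genes of chromosome 9 the median log2 change was 0.16.

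The pair did not rise evenly. ORM1 made up 80.4%, 80.2% and 80.3% of the pair in knockout libraries, against 72.3%, 72.6% and 71.98% in wild-type libraries. The difference was 8.02 percentage points. The groups were fully separated, and the exact two-sided permutation test gave p = 0.10, the smallest that 3 libraries against 3 allow. With the pair summed to 1 row, orosomucoid RNA had a mean of 3865 ± 27.2 CPM in the knockout and 1237 ± 26.4 CPM in wild type.

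SAA1 (chromosome 11, 18266174 to 18269977) encodes an acute phase serum amyloid A, an apolipoprotein of high-density lipoprotein. Its level was 1035, 1060.1 and 1033 CPM in knockout libraries, against 162, 144 and 148 CPM in wild-type libraries. SAA2 (18239223 to 18248643), the other acute phase form, had 147, 155 and 144 CPM in knockout libraries and 15.1, 14.0 and 14.8 CPM in wild-type libraries. Every knockout library was above every wild-type library at both genes. The log2 fold changes were 2.78 ± 0.038 for SAA1 and 3.30 ± 0.043 for SAA2 (limma adjusted p = 1.9e-16 and 1.1e-16). Here the share of the major gene moved the other way from that in the orosomucoid pair: SAA1 made up 87.5% ± 0.23 of SAA1 plus SAA2 in the knockout and 91.2% ± 0.31 in wild type (exact permutation p = 0.10, the smallest possible). Summed, the pair rose by 2.84 ± 0.037.

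SAA4 (18231349 to 18236893), the constitutive member, showed the widest difference of the 10. It had 62.1, 61.6 and 65.2 CPM in knockout libraries, against 0.149, 0.479 and 0.0931 CPM in wild-type libraries. The wild-type values rested on 1.81, 10 and 2.07 estimated reads, so the gene was close to undetected there, and the size of its fold change is poorly fixed. The log2 fold change was 6.46 ± 0.15 (limma adjusted p = 5.6e-14), and it was 7.70 with a pseudocount of 0.1 and 5.70 with a pseudocount of 1. SAA4 made up 5.02% ± 0.21 of the summed SAA1, SAA2 and SAA4 signal in the knockout and 0.148% ± 0.13 in wild type. The read-through gene SAA2-SAA4 stood at 2.91 ± 0.18 CPM in the knockout and 0.203 ± 0.27 CPM in wild type, so it was far below SAA4 in the knockout.

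**Figure D2:**
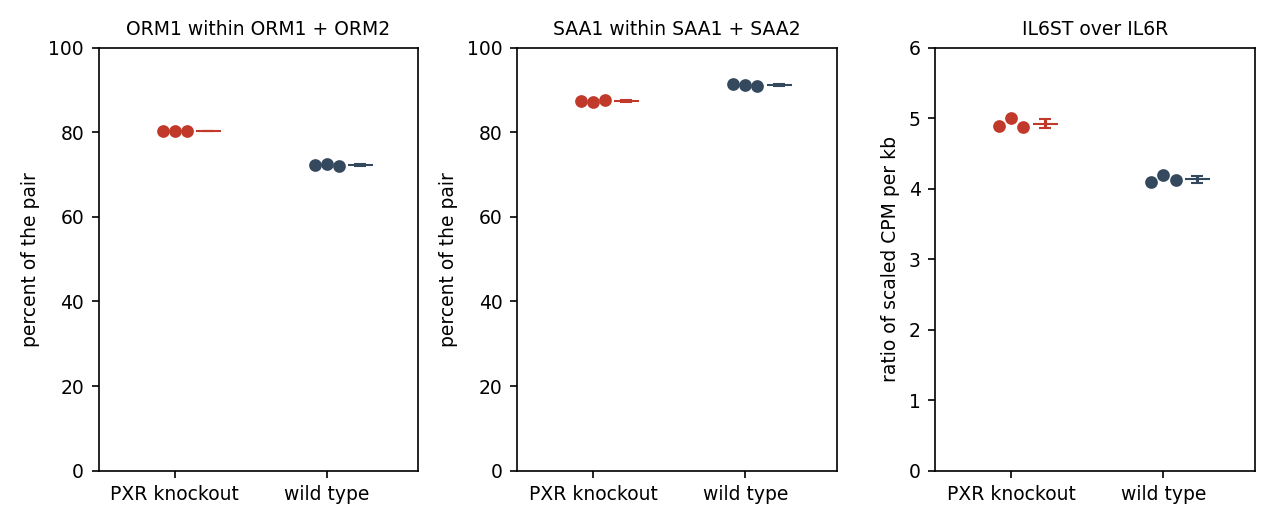
Share of ORM1 in ORM1 plus ORM2, share of SAA1 in SAA1 plus SAA2, and ratio of IL6ST to IL6R per kilobase, with 1 point per library, PXR knockout left of wild type, and a dash with a bar for the mean and SD (n = 3). The ORM1 share and the receptor ratio are higher in the knockout and the SAA1 share is lower, with no overlap of the groups in any panel.

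LBP (chromosome 20, 38346356 to 38377023) encodes the plasma protein that hands bacterial lipopolysaccharide to CD14. It had 593, 586 and 606 CPM in knockout libraries, against 55.9, 59.5 and 56.2 CPM in wild-type libraries. The groups were 10.4-fold apart by their means, with a log2 fold change of 3.37 ± 0.030 (limma adjusted p = 3.4e-18), the smallest adjusted p of the 10 genes. The median log2 change on chromosome 20 was -0.10 over 383 genes.

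CRP (chromosome 1, 159712289 to 159714589), the pentraxin used as the clinical marker of inflammation, rose steeply but to a low level. It had 12.5, 12.4 and 14.0 CPM in knockout libraries, against 0.659, 0.287 and 0.495 CPM in wild-type libraries. The wild-type libraries held 8, 6 and 11 estimated reads, and the knockout libraries 407, 336 and 450. The log2 fold change was 3.80 ± 0.14 (limma adjusted p = 8.9e-12), or 4.55 and 3.25 with pseudocounts of 0.1 and 1. Per kilobase of merged exons, CRP was the lowest of the 10 genes in the knockout, at 6.45 ± 0.43 CPM, and had 0.238 ± 0.093 CPM in wild type, where it overlapped SAA4 between libraries.

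The ligand-binding receptor chain, IL6R (chromosome 1, 154405193 to 154469450), was the only member called as lower. It had 101, 96.0 and 101 CPM in knockout libraries, against 113, 113 and 115 CPM in wild-type libraries, a log2 fold change of -0.19 ± 0.031 (limma adjusted p = 5.6e-05). The groups did not overlap, but the difference is small, with a ratio of the means of 0.875.

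IL6ST (chromosome 5, 55935095 to 55994993), for the signal-transducing chain gp130, was nearly level. It had 710.1, 692 and 710.4 CPM in knockout libraries, against 663, 683 and 681 CPM in wild-type libraries. Its log2 fold change of 0.06 ± 0.025 passed the threshold narrowly (limma adjusted p = 0.042), and the sign was not stable. With all libraries scaled to equal sums it was -0.08 (limma adjusted p = 0.013), with quantile normalization 0.03 (limma adjusted p = 0.21), and the call was lost without knockout library 1 or 3 or wild-type library 1 or 3 (limma adjusted p from 0.064 to 0.11). No direction is therefore given for IL6ST. Per kilobase, gp130 RNA exceeded IL6R RNA by a ratio of 4.93 ± 0.070 in the knockout and 4.13 ± 0.052 in wild type (exact permutation p = 0.10, the smallest possible).

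SOCS3 (chromosome 17, 78356778 to 78360077), the feedback inhibitor, rose. It had 24.2, 27.4 and 28.3 CPM in knockout libraries, against 14.6, 14.9 and 13.2 CPM in wild-type libraries. The lowest knockout library was well above the highest wild-type library. The log2 fold change was 0.88 ± 0.072 (limma adjusted p = 4.5e-08), below the 2-fold mark that all 7 plasma proteins passed.

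**Figure D3:**
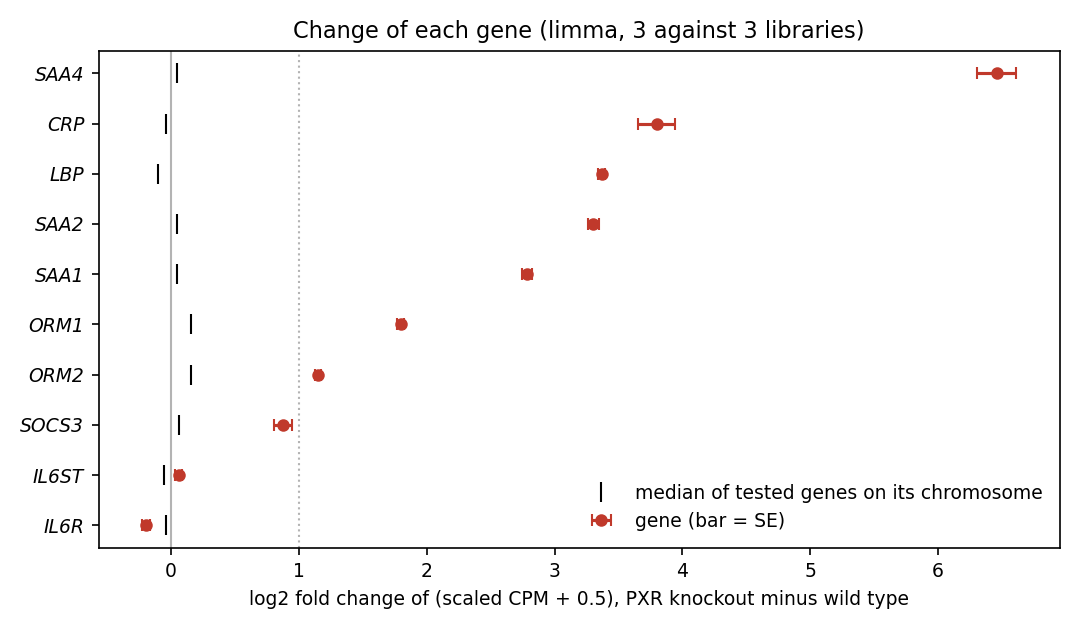
Log2 fold change of each gene, PXR knockout minus wild type, as points with SE from limma (3 libraries against 3), and the median of all tested genes on the gene's chromosome as a black tick; the dotted line marks 2-fold. The values run from -0.19 for IL6R to 6.46 for SAA4, while the chromosome medians lie between -0.10 and 0.16.

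Levels between genes were compared per kilobase of merged exons in GENCODE 29. In the knockout the order was ORM1 at 3445 ± 26.3, SAA1 at 1310 ± 19.1, ORM2 at 1001 ± 6.14 and LBP at 303 ± 5.17 CPM per kilobase. SAA4 at 86.6 ± 2.70, IL6ST at 75.8 ± 1.12 and SAA2 at 66.8 ± 2.31 came next, followed by IL6R at 15.4 ± 0.44, SOCS3 at 9.73 ± 0.79 and CRP. No neighbours in this order overlapped between libraries. The merged length of SAA2, 2227 bases, includes several alternative exons and is longer than the 796 bases of SAA1, so its level per kilobase is a low estimate and its place is uncertain.

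In wild type the order was ORM1 at 992 ± 21.1, ORM2 at 451 ± 11.2, SAA1 at 190 ± 12.4 and IL6ST at 72.7 ± 1.22 CPM per kilobase. LBP at 29.2 ± 1.0, IL6R at 17.6 ± 0.18, SAA2 at 6.57 ± 0.24 and SOCS3 at 5.21 ± 0.34 followed. SAA4 at 0.331 ± 0.29 and CRP had the lowest levels and overlapped between libraries, the only neighbours that did. ORM1 ranked 11th of 16174 genes per kilobase in the knockout and 15th in wild type, so it was among the most abundant transcripts of both groups.

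The genes with the profile most like that of ORM1, the most abundant member, were taken as those with the smallest root mean square difference between centred log2 values over the 6 libraries. They were DNAJB9, for a chaperone partner of the endoplasmic reticulum, with a difference of 0.011, ITIH2, for an inter-alpha-trypsin inhibitor heavy chain, with 0.014, and ZNF468, for a zinc finger protein, with 0.023. As the libraries fall into 2 groups, this likeness says mainly that the group means differed by a like factor. ITIH2 had 408 ± 2.82 CPM in the knockout and 116 ± 1.15 CPM in wild type.

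Promoter sequences from RefSeq (GRCh38.p14) were at hand for 6 of the 10 members. The 250 bases before the RefSeq start of CRP and of SAA4 are shown because both genes were near 0 in wild type. Letters that match a searched motif are in capitals. Both strands were searched for the STAT-type palindromes TTCNNNGAA and TTCNNGAA, the C/EBP-type motif TTGCNNAA and the TATA box TATAAA. TTCNNGAA was added after the CRP window had been seen. The CRP window is chr1:159714590-159714839 and the SAA4 window is chr11:18236803-18237052, both on the minus strand.
CRP: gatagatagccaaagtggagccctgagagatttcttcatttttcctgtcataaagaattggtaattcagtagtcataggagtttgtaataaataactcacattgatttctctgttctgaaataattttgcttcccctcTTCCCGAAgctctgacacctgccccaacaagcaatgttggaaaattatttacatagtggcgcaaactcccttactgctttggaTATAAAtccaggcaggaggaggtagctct
SAA4: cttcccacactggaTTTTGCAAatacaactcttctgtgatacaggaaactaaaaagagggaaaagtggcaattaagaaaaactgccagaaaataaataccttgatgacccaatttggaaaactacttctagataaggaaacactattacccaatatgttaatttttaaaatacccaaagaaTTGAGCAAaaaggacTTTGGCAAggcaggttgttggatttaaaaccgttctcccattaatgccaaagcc

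The CRP window held 1 match to TTCNNGAA and 1 to TATAAA. TTCNNGAA was found in 6.62% of 35116 promoter windows of that length and TATAAA in 10.7%. As TTCNNGAA was added after the CRP window had been seen, its share does not bear on the match there. The SAA4 window held 3 matches to TTGCNNAA, found at least once in 9.05% of windows. IL6R and 1 of the 2 SOCS3 windows also had 1 match to TTCNNGAA each, ORM1 had 1 match to TATAAA, and no member window matched TTCNNNGAA, which 6.57% of all windows did. These are matches of letters and do not show binding.

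Neighbouring genes were the nearest tested gene on each side of each locus, and some lay far away. Distances ran from 174 bases (AC016596.1 at IL6ST) to 179778 bases (TGM2 at LBP). BIRC5 lay 131142 bases from SOCS3, and OR10J6P 113062 bases from CRP. The tested genes on either side of the SAA cluster were AC090099.1, a pseudogene at 7.47 ± 0.24 CPM in the knockout and 7.83 ± 0.63 CPM in wild type (limma adjusted p = 0.55), and HPS5, whose product acts in lysosome-related organelle formation and which rose by 0.43 ± 0.037. Beside the ORM pair, the collagen gene COL27A1 rose by 1.32 ± 0.040 and AKNA, 904 bases beyond ORM2, fell by 0.58 on the log2 scale (SE 0.083). Beside SOCS3, BIRC5, for the mitotic protein survivin, fell by 1.43 (SE 0.054) and PGS1, for a step of cardiolipin synthesis, fell by 0.44 (SE 0.060).

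The genes beside CRP went opposite ways. The pseudogene OR10J6P had 1.65 ± 0.29 CPM in the knockout and 0.353 ± 0.19 CPM in wild type, a rise of 1.35 ± 0.19, and the phosphatase gene DUSP23 fell by 0.41 (SE 0.039). Next to LBP, the transglutaminase gene TGM2 changed by 0.11 ± 0.036, a value that turned negative with equal sums or quantile normalization, and the noncoding AL391095.1 did not pass the test. Next to IL6R, the flippase gene ATP8B2 and the ubiquitin-conjugating enzyme gene UBE2Q1 fell by 0.38 (SE 0.12) and 0.14 (SE 0.041), and the call of ATP8B2 was lost without knockout library 1 (limma adjusted p = 0.065). Next to IL6ST, neither IL31RA nor the antisense gene AC016596.1 passed (limma adjusted p = 0.12 and 0.64). COL27A1, whose nearest member is ORM1, changed by 1.32, less than ORM1 at 1.80 and more than ORM2 at 1.15. Whether it differs from either was not tested.

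Most other plasma proteins of the acute phase were higher in the knockout, whether they are known to rise or to fall in inflammation. Beside the counts of this list and those below stand the shares over all genes tested, 40.3% called as higher and 39.6% as lower. Of 21 other positive acute phase genes tested, all 21 passed as higher (median log2 3.68), but the call of CP, for ceruloplasmin, was marginal. CP was called as lower with equal sums, and it was not called with quantile normalization, with the replicate block, or without knockout library 1 or 3 or wild-type library 1 or 2 (limma adjusted p from 0.062 to 0.20). It had 311 ± 4.80 CPM in the knockout and 297 ± 4.84 CPM in wild type. The list was led, with the largest values, by HPX, the heme carrier, at 7.80 ± 0.082, FGL1, a fibrinogen-like protein, at 6.90 ± 0.094, and HP, for haptoglobin, at 5.39 ± 0.038. HP had 2330.4 ± 6.65 CPM in the knockout and 55.1 ± 3.57 CPM in wild type. HPX, FGL1, C9, PLG and MBL2 were under 1 CPM in every wild-type library. They passed the filter only through the knockout and could only be called as higher. Of 11 negative acute phase genes, whose products decline in plasma during inflammation, 10 rose and 1 fell (median 5.15). APOA1, the main protein of high-density lipoprotein, rose by 7.23 ± 0.049 and the paraoxonase gene PON1 by 5.60 ± 0.14. F12, for coagulation factor XII, stood at 30.3 ± 1.47 CPM in the knockout and was listed at 0 in all 3 wild-type libraries, at least 558-fold higher when set against 3 reads over the wild-type group. F12, AHSG and IGF1 were likewise under 1 CPM in every wild-type library and could only be called as higher. SERPINA5, a protease inhibitor, was the one that fell, at 255 ± 1.86 CPM in the knockout and 480.2 ± 6.10 CPM in wild type.

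The markers of hepatocytes moved with these genes. All 8 tested hepatocyte markers rose, and their summed level was 39215 to 40374 CPM in knockout libraries and 2064 to 2137 CPM in wild-type libraries. Of these, ASGR1 and APOA2 were under 1 CPM in every wild-type library and could only be called as higher. Albumin (ALB) made up 82.4% to 82.7% of the summed level of all 8 in the knockout and 40.04% to 42.1% in wild type. ALB, TTR and SERPINA1 are also in the acute phase lists. The other 5 markers, ASGR1, APOA2, TAT, CPS1 and APOB, all rose, and summed to 4251 to 4439.6 CPM in knockout libraries and 883 to 906 CPM in wild-type libraries. Of the stellate and mesenchymal markers 5 of 6 rose and 1 fell, with sums of 486 to 508 CPM against 97.3 to 104 CPM in wild type. Of 6 bile duct markers 4 were tested, 2 higher and 2 lower (373 to 399 CPM in knockout and 489 to 515 CPM in wild type). That sum was mainly KRT19, at 334 CPM in knockout and 111 CPM in wild type, and SPP1, at 43.6 and 382 CPM. Of 5 endothelial markers 2 were tested, 1 higher and 1 lower (215 to 222 and 54.8 to 55.1 CPM). Nearly all of this sum was KDR, at 218 and 53.3 CPM, while PECAM1 had 0.353 and 1.58 CPM. KRT7, PDGFRB and PECAM1 were under 1 CPM in every knockout library and could only be called as lower. Of 9 macrophage and leukocyte markers 3 were tested, 2 higher and 1 lower, with sums of 22.7 to 24.1 CPM in knockout and 13.6 to 16.8 CPM in wild type; the other 6, the leukocyte gene PTPRC among them, were not analysed here. The part of cell makeup in the result was not tested, and in bulk RNA more cells of a type cannot be told apart from more RNA per cell.

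Receptors and ligands of the IL6 family showed smaller and mixed changes. Of 9 tested, 4 rose, 3 fell and 2 did not pass (median 0.19). The split was 3 higher and 4 lower with equal sums, and 3 and 3 with quantile normalization or without knockout library 2 or 3 or wild-type library 1 or 2, so no direction is given for the list. IL11RA, for the IL11-binding chain that also pairs with gp130, rose to 34.9 ± 1.43 CPM in the knockout, against 7.03 ± 1.02 CPM in wild type (log2 2.24 ± 0.090). LIFR, the gp130 partner for leukemia inhibitory factor, had 227, 220 and 224 CPM in knockout libraries and 164, 164 and 167 CPM in wild-type libraries, a rise of 0.44 ± 0.026. The ligand gene CLCF1 rose by 0.95 ± 0.092. OSMR, the gp130 partner for oncostatin M, fell to 86.3 ± 2.53 CPM in the knockout, against 107.9 ± 2.22 CPM in wild type. IL27RA fell by 0.32 (SE 0.053) and EBI3, for an IL27 subunit, by 0.79 (SE 0.16). The ligand IL6 itself was not analysed here.

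Among genes of the JAK and STAT relay and its brakes, 13 of 24 rose, 8 fell and 3 did not pass (median 0.17). With equal sums the balance turned round, with 9 higher and 10 lower, so no direction is given for the list. STAT3 had 287, 303 and 302 CPM in knockout libraries, against 172, 167 and 164 CPM in wild-type libraries, a rise of 0.83 ± 0.030 (limma adjusted p = 4.3e-12). JAK2 rose by 0.99 ± 0.065, while JAK1, the main kinase on gp130, fell by 0.14 (SE 0.030). SOCS2, best known for restraining growth hormone signalling, rose most, to 25.6 ± 0.91 CPM in the knockout, against 5.86 ± 0.31 CPM in wild type. The 3 largest falls were those of ADAM17, the protease that sheds IL6R from the cell surface, by 1.08 (SE 0.031), the STAT inhibitor PIAS1 by 0.82 (SE 0.030) and SOCS7 by 0.77 (SE 0.039). ADAM17 stood at 49.1 ± 0.38 CPM in the knockout and 104 ± 0.52 CPM in wild type.

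Genes commonly given as early STAT3 targets rose at 12 of 19 tested, fell at 5 and did not pass at 2 (median 0.34). With equal sums or quantile normalization 11 were higher and 7 lower. Over all genes tested, 40.3% were called as higher and 39.6% as lower. The survival gene BCL2L1 rose by 1.48 ± 0.035, the C/EBP gene CEBPD by 0.91 ± 0.059 and TIMP1, for an inhibitor of matrix proteases, by 0.69 ± 0.033. BIRC5 fell most, and the cyclin gene CCND1 and the repressor gene BCL6 fell by 0.43 (SE 0.035) and 0.41 (SE 0.035).

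The IL1, TNF and NF-kB arm, which acts with IL6 on CRP and serum amyloid A in hepatocytes, rose at 11 of 21 genes, fell at 7 and did not pass at 3 (median 0.22). With equal sums 10 were higher and 9 lower, so no direction is given for the list. The shares over all genes tested were 40.3% called as higher and 39.6% as lower. The kinase gene IRAK4 rose by 1.80 ± 0.087, IL1RAP, for the accessory chain of the IL1 receptor, by 1.5 ± 0.081 and the decoy receptor gene IL1R2 by 1.37 ± 0.047. Falls were led by LY96, for the lipopolysaccharide-binding partner of TLR4, at 0.88 (SE 0.13), IRAK1 at 0.76 (SE 0.036) and TLR2 at 0.66 (SE 0.080). The receptor side of the route that LBP feeds was chosen after its values were seen: TLR4 had 22.9 ± 1.04 CPM in the knockout and 8.96 ± 0.88 CPM in wild type, and CD14 had 1.55 ± 0.13 CPM in the knockout and 2.03 ± 0.071 CPM in wild type.

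Transcription factors that act on acute phase promoters in liver rose at 8 of 11 genes tested, against 40.3% of all genes, and 3 did not pass (median 1.01). Of those 3, FOXA3 and PPARA were called as lower with equal sums, and FOXA3 also with quantile normalization or without wild-type library 1. NR1H4, the bile acid receptor FXR, had 68.7 ± 2.63 CPM in the knockout and 2.17 ± 0.39 CPM in wild type. ONECUT1, a hepatic cut-homeodomain factor, stood at 9.28 ± 0.28 CPM in the knockout and 0.0734 ± 0.022 CPM in wild type. ONECUT1 was under 1 CPM in every wild-type library, so under the filter it could only be called as higher. CEBPB, the factor first named for IL6, had 76.8, 85.0 and 82.03 CPM in knockout libraries, against 54.7, 51.8 and 60.7 CPM in wild-type libraries, a rise of 0.54 ± 0.054.

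**Figure D4:**
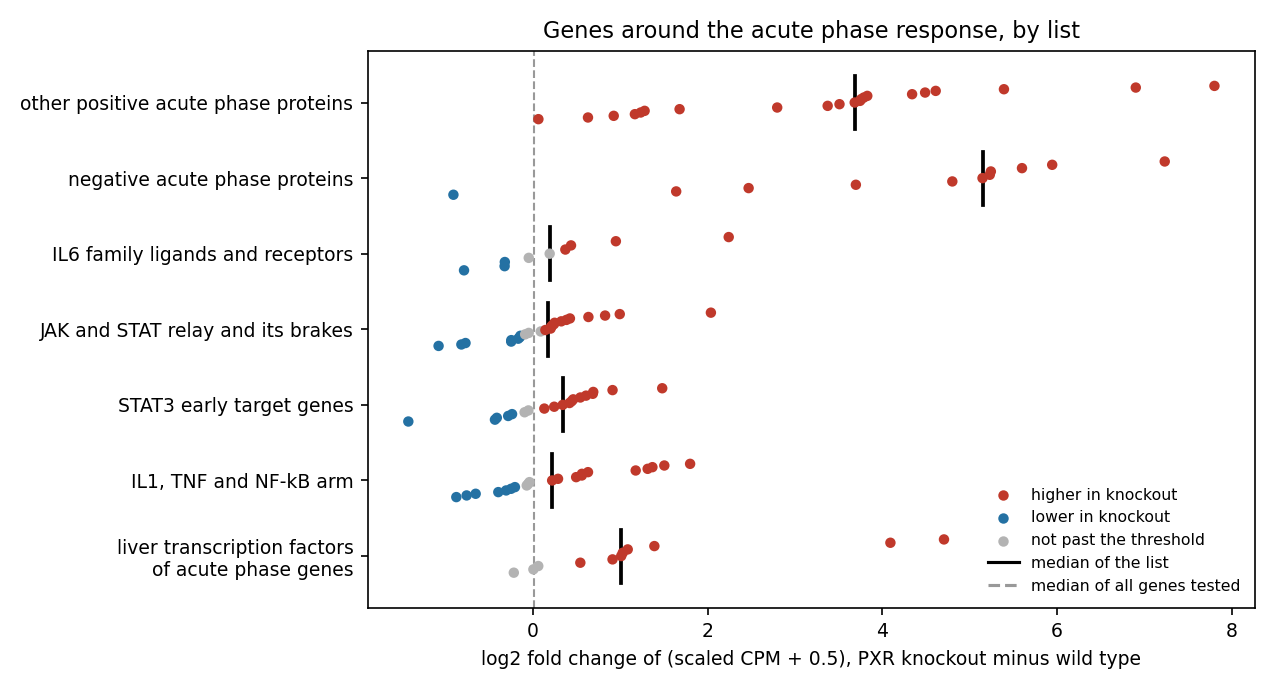
Log2 fold change, PXR knockout minus wild type, of each tested gene in 7 lists around the acute phase response, with red for higher, blue for lower and grey for not past the threshold; a black bar marks each list's median and the dashed line the median of all genes tested. The 2 lists of plasma proteins have medians of 3.68 and 5.15, the transcription factors 1.01, and the 4 signalling lists lie between 0.17 and 0.34.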

How the data were processed

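RNA was sequenced from 3 PXR knockout and 3 wild-type HepaRG libraries. Groups and replicate numbers came from the sample titles. Per the labels' protocols, total RNA was made into libraries with a stranded mRNA kit. Tools named by the submitters' processing notes are Bowtie2, Trim Galore, FastQC, limma and edgeR, with the build hg38. Their versions, the annotation and the strand setting are not given there, and RSEM stands in the sample titles. The deposited values are a linear normalized signal, although the table is named for log2 CPM, and their low values step in hundredths of a read. That step gave the depths. Only 67.9% to 76.6% of values under 20 reads were whole within 0.006 of a read, so no count test was run.

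In all, 14 duplicate pseudoautosomal rows were left out and 21 date-like symbols restored. Of 16659 identifiers, 16608 matched GENCODE 29. Genes with scaled CPM above 1 in at least 3 libraries were tested with limma 3.58.1 in R 4.3.3 on log2(scaled CPM + 0.5), by group, with a mean-variance trend, two-sided, at an adjusted p of 0.05. The fit was also run on simulated counts with few changed genes, unlike these data, so that run does not check the calls made here. Named genes were the members, NR1I2, a fixed set, up to 3 largest rises and falls per list, flanking genes and the 3 profiles nearest to ORM1; 1 gene of that rule is not reported here. CP, C9, PLG, MBL2, AHSG, IGF1, FOXA3, PPARA, the hepatocyte markers, KRT7, KRT19, SPP1, PDGFRB, KDR and PECAM1 were named after their values were seen. Members and lists were chosen with earlier results of these data known. Other tools were Python 3.11.15, pandas 2.3.3, numpy 2.4.6, scipy 1.17.1 and matplotlib 3.10.9. Limits from counts of 0 cover counting error only.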

Additional observations from a re-analysis of the deposited data

How the results depend on the processing

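Across 14 alternatives (pseudocounts of 0.1 and 1, no filter or a filter at 5 CPM, quantile normalization, equal sums, robust empirical Bayes, a replicate block and each library left out), 9 of the 10 members kept their direction and call; IL6ST did not. With equal sums the median of all genes fell to -0.12, and IL6ST turned to -0.0779, TGM2 to -0.0279, AL391095.1 to -0.0630 and AC016596.1 to -0.0134; with quantile normalization TGM2 turned to -0.0156, AL391095.1 to -0.0769 and AC016596.1 to -0.106. With 1 library left out, AL391095.1 ranged from -0.0877 (without wild-type replicate 1) to 0.208 and AC016596.1 from -0.00778 (without wild-type replicate 2) to 0.172. Calls over all genes split into 5346 higher and 7715 lower with equal sums, against 6534 and 6426. The cause was not tested. For genes called, all genes tested, leaving out 1 library at a time gave 12444 to 12887 calls, and 9 or 10 members were called. With the replicate block 12916 genes, 9 members and 99 of the listed genes were called, IL6ST losing its call (limma adjusted p = 0.071). Same-numbered libraries did not deviate together (correlations of -0.02, -0.06 and 0.02), so the numbers are not taken as pairs. ORM1 and ORM2 summed rose by 1.64 ± 0.028. Depth limits SAA4 and CRP, with 13.9 and 25.0 reads over the wild-type group.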
